A study of Mus musculus with 4 samples.

Results

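The genes described here are 7 enzymes of cholesterol synthesis, Hmgcs1, Mvk, Pmvk, Fdps, Sqle, Cyp51 and Dhcr7, followed through the growth of the mouse oocyte. They were chosen by name from the 25587 genes of the deposited RNA-Seq table, and each had 1 row in it. None of the 7 takes up cholesterol, so the genes of uptake and lysosomal transfer are given separately, from a list. RNA came from oocytes of untreated wild-type C57BL/6Babr females at 4 stages, with the oocytes of many animals pooled into 1 rRNA-depleted library per stage. Non-growing oocytes (NGOs) were taken at 5 days post partum (dpp), growing oocytes at 8 to 14 dpp (GO1) and at 15 dpp (GO2), and fully grown germinal vesicle oocytes (FGOs) at 20 dpp. The libraries of NGOs and FGOs were prepared by the dUTP method and those of GO1 and GO2 with ScriptSeq, so changes were measured within these pairs, and stage and method cannot be told apart between NGOs and GO1 or between GO2 and FGOs. With 1 library per stage there was no replicate check and no test between stages.

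Cells make cholesterol from acetyl-CoA. The mevalonate pathway first builds isoprenoid units and joins them into farnesyl pyrophosphate, squalene is then formed from it and oxidised, and a series of sterol steps turns lanosterol into cholesterol. Transcription of these genes is driven by SREBP2, the product of Srebf2 when sterols are low in the endoplasmic reticulum membrane. Mouse oocytes are known for low activity of this pathway and receive cholesterol from the surrounding cumulus and granulosa cells, in which the oocyte factors GDF9 and BMP15 promote the expression of cholesterol synthesis genes.

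Values are RPKM, that is reads scaled to exon length in kilobases and to a library total, and levels of different genes are compared on this length-corrected scale. The total is 2.94 to 3.55 times the number of uniquely mapped reads, and what it counts is not given in the sources used here, so RPKM per uniquely mapped reads would be higher by these factors. The read counts behind them were recovered, and the genes held 63619207 to 140236566 recovered counts per library, with the most in GO2. For 10219 genes the exon length used was the smallest that made the values whole, so their counts can be too low. No span of the 7 genes overlapped another listed gene. Intervals in brackets are 95 % Poisson intervals and cover counting error only. Genes with at least 3 counts numbered 16605 to 18182 per library, with a median RPKM of 1.26 to 2.07. All 10 oocyte markers were detected in every library, with a summed RPKM of 7201 in NGOs and 4925 in GO1, then 4613 in GO2 and 4426 in FGOs, led by Zp2 and Zp3, which encode zona pellucida proteins. Of 7 stroma and theca markers, 6 were detected in NGOs and 6 in GO1, then 6 in GO2 and 5 in FGOs, and their summed RPKM was 5.52 in NGOs and 0.176 to 0.263 in the other libraries. The collagen genes Col1a1 and Col3a1 led this list, with an RPKM of 2.24 and 1.73 in NGOs, and Lum, a proteoglycan gene, was at 0 counts in GO1, GO2 and FGOs. Of 10 granulosa cell markers, 9, 8, 10 and 10 were detected in the order of the stages, and their summed RPKM was 5.97, 12.0, 16.6 and 19.7. Most of it came from Nr5a2, with an RPKM of 3.62 to 11.4, and Cyp19a1. From NGOs to FGOs 7 of the 10 granulosa cell markers were higher past 2-fold and 1 was lower, beside 17.7 % and 16.8 % of all genes compared. The largest rise was that of Cyp11a1, at a log2 change of 5.02 on 1 and 66 counts. Cyp19a1 followed, with an RPKM of 0.518 in NGOs and 6.08 in FGOs. The log2 change was 2.28 for Hsd17b1, 1.72 for Kitl and 1.31 for Nr5a2. The lower marker was Foxl2, at -1.34 on 21 and 8 counts. In the order of the stages, 3 endothelial markers, led by Pecam1 and Kdr, summed to 1.81, 5.18, 8.36 and 9.81. Pecam1 and Kdr were both higher in FGOs past 2-fold, with an RPKM of 1.74 and 0.0286 in NGOs and of 9.70 and 0.108 in FGOs, and Cdh5 was at 0 counts in GO2 and FGOs. The 5 blood markers, led by Hba-a1 and Cd68 in NGOs, summed to 1.57, 0.572, 0.613 and 0.345.

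Hmgcs1 encodes the cytosolic HMG-CoA synthase, which joins acetoacetyl-CoA and acetyl-CoA early in the pathway. It lies on chr13:119690462-119708086 on the plus strand (GRCm38, whole gene). Its RPKM was 49.4 (48.6 to 50.1) in NGOs and 84.1 (83.3 to 85.0) in GO1, then 67.5 (66.9 to 68.0) in GO2 and 69.9 (69.0 to 70.7) in FGOs. This was the highest level of the 7 genes in every library, above 96.7 % of the detected genes in NGOs and 98.4 % in GO1, then 98.1 % in GO2 and 97.9 % in FGOs. Hmgcs1 alone made up 70.2 % of the summed RPKM of the 7 genes in NGOs and 87.1 % in GO1, then 85.5 % in GO2 and 88.3 % in FGOs. The summed RPKM of the other 6 genes was 20.9 in NGOs and 12.4 in GO1, then 11.5 in GO2 and 9.25 in FGOs.

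The promoters of Hmgcs1, the gene with the highest level, and of Mvk and Cyp51, both of which were lower in FGOs than in NGOs, are shown for comparison. RefSeq windows of 300 bases (GRCm38.p6, 250 bases before the transcription start and 50 from it on) were matched for 5 of the 7 genes, and Fdps and Sqle were not matched. They were searched on both strands for the sterol regulatory element in the form TCACNCCAC, for the CCAAT box and for the GC box GGGCGG, which are motifs of SREBP2, NF-Y and Sp1, respectively. In the sequences below, which run 5′ to 3′ on the strand of the gene, capitals mark these motifs on either strand.
Hmgcs1, chr13:119690101-119690400, plus strand: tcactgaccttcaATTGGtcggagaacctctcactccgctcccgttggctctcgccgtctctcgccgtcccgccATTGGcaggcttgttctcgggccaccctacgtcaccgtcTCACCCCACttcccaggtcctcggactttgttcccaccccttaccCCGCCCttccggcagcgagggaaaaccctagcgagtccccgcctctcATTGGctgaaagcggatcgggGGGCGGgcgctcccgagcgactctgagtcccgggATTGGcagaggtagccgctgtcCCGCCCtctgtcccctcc
Mvk, chr5:114444019-114444318, plus strand: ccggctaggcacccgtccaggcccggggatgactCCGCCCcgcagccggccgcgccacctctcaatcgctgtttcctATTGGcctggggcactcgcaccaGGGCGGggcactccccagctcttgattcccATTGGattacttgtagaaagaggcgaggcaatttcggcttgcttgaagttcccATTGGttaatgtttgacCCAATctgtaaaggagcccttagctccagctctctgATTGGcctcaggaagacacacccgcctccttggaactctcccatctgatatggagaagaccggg
Cyp51, chr5:4104648-4104947, minus strand: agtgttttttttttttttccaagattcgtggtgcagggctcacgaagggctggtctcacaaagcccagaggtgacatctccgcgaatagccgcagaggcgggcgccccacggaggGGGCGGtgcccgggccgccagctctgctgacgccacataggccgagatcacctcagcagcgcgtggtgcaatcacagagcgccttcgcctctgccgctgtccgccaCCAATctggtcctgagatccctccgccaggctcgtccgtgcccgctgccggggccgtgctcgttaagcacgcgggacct
The 5 genes had 8 windows, of which 2 belonged to Pmvk and 3 to Dhcr7. The sterol regulatory element was matched in 1 of the 8, that of Hmgcs1, where it reads TCACCCCAC and starts 137 bases before the transcription start. It was present in 1.24 % of all 32851 promoter windows. Other forms of the element were not searched, so a window without a match, such as that of Cyp51, may still hold one. A CCAAT box was matched in 5 of the 8 windows and in 37.4 % of all windows, and a GC box in 5 of the 8 and in 35.7 % of all windows. The CCAAT box of Pmvk lay in a window at chr3:89454291-89454590, before the span that the deposited table gives for the gene. The window of Hmgcs1 also lay before the deposited span of that gene, so its distances refer to the RefSeq start. No match overlapped a match of another motif. A match in these letters is a description of the sequence and not a measured binding site.

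Mevalonate kinase, the product of Mvk (chr5:114444269-114460591, plus strand), phosphorylates mevalonate. Its RPKM was 1.06 (0.944 to 1.18) in NGOs and 0.215 (0.169 to 0.271) in GO1, then 0.166 (0.136 to 0.2003) in GO2 and 0.278 (0.223 to 0.342) in FGOs, from 73 to 313 counts. NGOs were above the other libraries with no overlap of the intervals, and in GO1, GO2 and FGOs Mvk was the lowest of the 7 genes, above 28.1 to 29.6 % of the detected genes. Among all listed genes, which include those with no reads, Mvk was above 49.98 to 53.0 % in these libraries. Mvk is listed 209 bases from the start of Mmab, a gene of cobalamin metabolism transcribed in the opposite direction. Mmab, singled out after its values were seen, had an RPKM of 3.81 in NGOs and 3.15 in GO1, then 3.30 in GO2 and 3.51 in FGOs.

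Phosphomevalonate kinase, encoded by Pmvk (chr3:89459118-89469013, plus strand), adds the next phosphate. The RPKM of Pmvk was 5.72 (5.36 to 6.10) in NGOs and 3.37 (3.12 to 3.64) in GO1, then 2.95 (2.78 to 3.13) in GO2 and 2.73 (2.49 to 2.98) in FGOs. Pmvk was highest in the NGO library, and the intervals of neighbouring stages overlapped from GO1 to FGOs. Fdps (chr3:89093592-89101967, minus strand) encodes farnesyl pyrophosphate synthase, which makes the precursor shared by sterols, prenylated proteins, dolichol and ubiquinone. Its RPKM was 4.15 (3.81 to 4.50) in NGOs and 3.72 (3.42 to 4.03) in GO1, then 4.46 (4.23 to 4.71) in GO2 and 2.59 (2.33 to 2.86) in FGOs. Fdps was highest in GO2, with an interval that overlapped that of NGOs, and FGOs lay below the other libraries with no overlap.

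Squalene epoxidase, encoded by Sqle (chr15:59315077-59331192, plus strand), carries out the first oxygen-requiring step of sterol synthesis. Its RPKM was 5.78 (5.59 to 5.97) in NGOs and 2.23 (2.12 to 2.34) in GO1, then 1.69 (1.62 to 1.76) in GO2 and 1.89 (1.79 to 2.002) in FGOs. NGOs stood apart, and the lowest value was that of GO2. Cyp51 (chr5:4081145-4104746, minus strand) encodes lanosterol 14-alpha-demethylase, whose product is known as a meiosis-activating sterol of the ovary. Its RPKM was 3.14 (2.98 to 3.31) in NGOs and 2.16 (2.03 to 2.28) in GO1, then 1.65 (1.57 to 1.73) in GO2 and 1.06 (0.976 to 1.16) in FGOs. None of the 4 intervals overlapped, and each stage was below the one before it. Dhcr7 (chr7:143823145-143848410, plus strand) encodes 7-dehydrocholesterol reductase, which makes cholesterol from 7-dehydrocholesterol. Its RPKM was 1.09 (0.994 to 1.20) in NGOs and 0.750 (0.675 to 0.832) in GO1, then 0.564 (0.516 to 0.615) in GO2 and 0.698 (0.623 to 0.779) in FGOs. GO1 and FGOs overlapped and NGOs lay above them, and GO2 lay below with no overlap, which was lost with wider intervals (0.483 to 0.654 in GO2 against 0.623 to 0.896 in GO1) from counts divided as described for the changes.

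**Figure D1:**
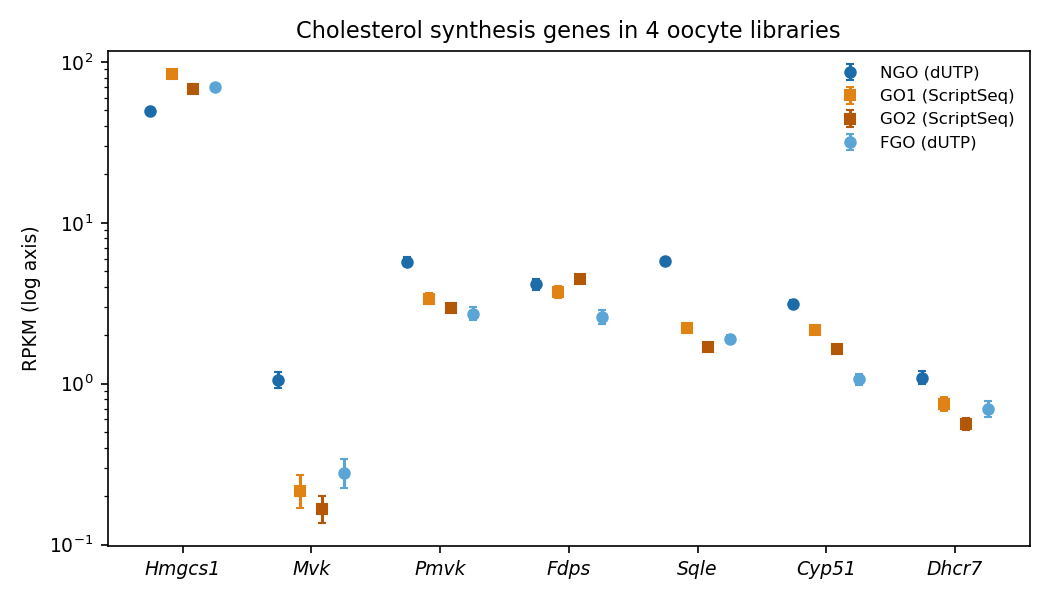
RPKM (y axis, logarithmic) of the 7 cholesterol synthesis genes (x axis) in the NGO, GO1, GO2 and FGO libraries, with 95 % Poisson intervals for counting error. Colours mark the library and marker shapes the library protocol. Hmgcs1 is lowest in NGOs at 49.4, whereas Mvk, Pmvk, Sqle, Cyp51 and Dhcr7 are highest in NGOs.

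Ordered by RPKM, Hmgcs1 was followed in NGOs by Sqle and Pmvk, which did not differ beyond counting error, then Fdps, Cyp51, and Dhcr7 and Mvk, which again overlapped. In GO1 the order below Hmgcs1 was Fdps and Pmvk, Sqle and Cyp51, Dhcr7, and Mvk, with overlapping intervals within each pair. In GO2 Fdps and Pmvk were separate, and Sqle and Cyp51 overlapped. In FGOs Pmvk and Fdps overlapped, and Sqle, Cyp51, Dhcr7 and Mvk followed without overlap. The RPKM ratio of Hmgcs1 to Sqle was 8.54 in NGOs and 37.7 in GO1, then 40.03 in GO2 and 36.9 in FGOs. The ratio of Hmgcs1 to Mvk was 46.6 in NGOs and 391 in GO1, then 407 in GO2 and 251 in FGOs. The lower of these ratios thus belonged in both cases to NGOs, the library in which Hmgcs1 was lowest and the other gene highest.

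From NGOs to FGOs, 4 of the 7 genes were lower by more than 2-fold, namely Mvk, Sqle, Cyp51 and Pmvk, and 0 of 7 were higher by more than 2-fold. Of the 15268 genes that reached 20 counts in this pair, 16.8 % were lower and 17.7 % higher past 2-fold. The log2 changes, from counts with library sizes adjusted by trimmed mean scaling, were -1.86 (-2.23 to -1.53) for Mvk, -1.55 (-1.65 to -1.46) for Sqle and -1.51 (-1.65 to -1.37) for Cyp51, or 3.63-fold, 2.94-fold and 2.84-fold lower in FGOs. The change of Pmvk was -1.01 (-1.17 to -0.86), or 2.02-fold lower, and its interval reached to both sides of the threshold. Fdps and Dhcr7 were at -0.63 (-0.82 to -0.44) and -0.59 (-0.80 to -0.38), below the threshold. Hmgcs1 was the exception in direction, at 0.56 (0.53 to 0.58). Together 6 of 7 genes were lower in FGOs by any size, beside 50.5 % of the genes compared, and the median of the 7 genes was -1.01, beside -0.01 for all genes compared. With GO1 in place of NGOs, a comparison across library methods that was added after the stromal markers of the NGO library had been seen, 1 of the 7 genes, Cyp51 at -1.16, was lower in FGOs past 2-fold, beside 14.7 % of 15166 genes, and the median was -0.41. Mvk was then at 0.22, Hmgcs1 at -0.41, Sqle at -0.38 and Pmvk at -0.45. The summed stroma and theca markers were 5.52 RPKM in NGOs and 0.245 in FGOs and the summed blood markers 1.57 and 0.345, whereas the granulosa cell sum was 5.97 in NGOs and 19.7 in FGOs, with 7 of 10 markers higher past 2-fold. The part of such cells in the difference between NGOs and FGOs was not tested. In pooled RNA, fewer cells of a type and less RNA per cell cannot be told apart.

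From GO1 to GO2, 0 of the 7 genes were lower and 0 higher past 2-fold, beside 2.93 % and 6.83 % of the 15748 genes compared. With only 7 genes, a count of 0 is close to these shares. The log2 changes were -0.45 (-0.54 to -0.35) for Sqle, -0.45 (-0.65 to -0.26) for Dhcr7, -0.43 (-0.54 to -0.32) for Cyp51 and -0.36 (-0.38 to -0.34) for Hmgcs1. Mvk was at -0.41 (-0.86 to 0.03), an interval that includes no change, and Pmvk at -0.23 (-0.38 to -0.09). Fdps was the gene with a positive value, at 0.22 (0.08 to 0.36). By any size 6 of 7 genes were lower in GO2, beside 49.2 % of the genes compared, and the median of the 7 genes was -0.41, beside 0.01 for all genes compared. The intervals take each count as a separate read. With counts divided by the ratio of library total to uniquely mapped reads, the interval of Pmvk from GO1 to GO2 was -0.48 to 0.01 and that of Fdps -0.02 to 0.47.

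**Figure D2:**
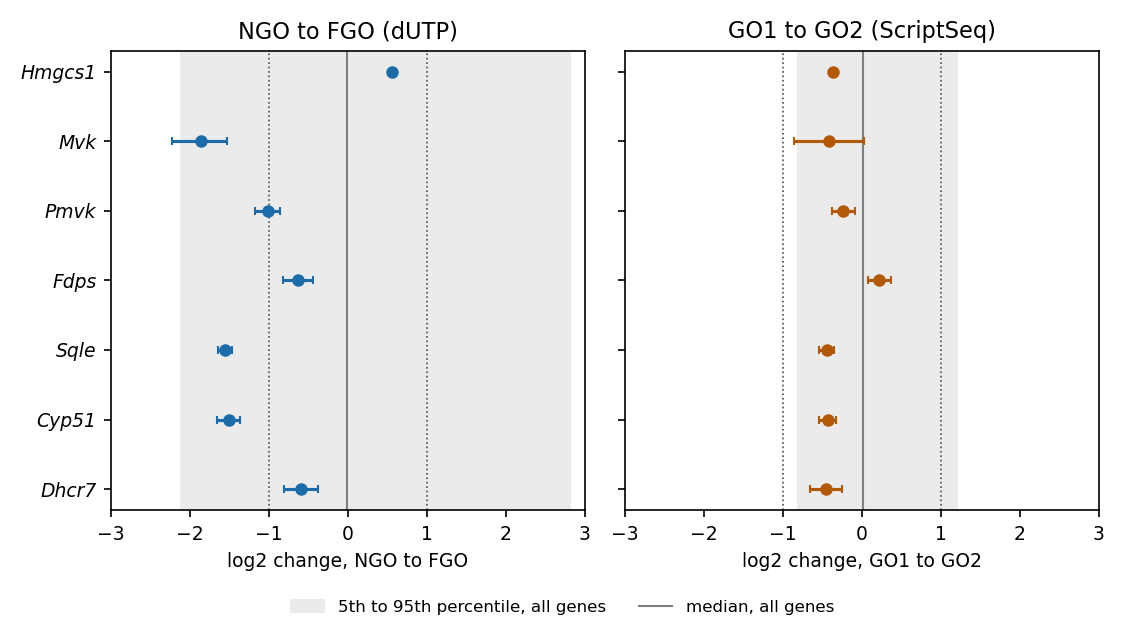
Log2 change of the 7 genes (points) from NGOs to FGOs (left) and from GO1 to GO2 (right), with 95 % intervals for counting error, the median of all genes compared (solid line), their 5th to 95th percentile (grey) and 2-fold changes (dotted lines). On the left Mvk, Sqle, Cyp51 and Pmvk lie past 2-fold lower at -1.86 to -1.01 and Hmgcs1 is at 0.56, and on the right all genes lie between -0.45 and 0.22.

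Between NGOs and GO1, where stage and library method cannot be told apart, the RPKM of Mvk was 4.92 times and that of Sqle 2.59 times as high in NGOs as in GO1. Pmvk was 1.70 times, Cyp51 and Dhcr7 1.46 times and Fdps 1.12 times as high in NGOs, and Hmgcs1 was 1.71 times as high in GO1. Between GO2 and FGOs, where the same holds, the RPKM of Fdps was 1.73 times and that of Cyp51 1.55 times as high in GO2, and that of Mvk was 1.68 times as high in FGOs.

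Further enzymes of the pathway were taken from lists. Of 4 further genes of the mevalonate and isoprenoid steps, 2 were lower and 1 was higher past 2-fold from NGOs to FGOs. The shares of all genes compared were 16.8 % and 17.7 %, and the median log2 change of the list was -0.94. The lower genes were Acat2, which encodes the cytosolic acetoacetyl-CoA thiolase ahead of Hmgcs1, and Mvd, the decarboxylase that follows Pmvk, with log2 changes of -1.68 and -1.14. Idi1, the isomerase after Mvd, was at 1.04, with an RPKM of 2.94 in NGOs and 5.49 in GO1, then 5.32 in GO2 and 5.83 in FGOs. Idi1 had the highest mean RPKM of this list and Acat2 the lowest, at 2.69, 0.484, 0.448 and 0.808 in the order of the stages. In every library Idi1 was well below Hmgcs1.

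Of 9 further genes of the sterol steps, 1 was lower and 0 were higher past 2-fold in FGOs. The shares of all genes compared were 16.8 % and 17.7 %, and the median log2 change of the list was 0.14. Tm7sf2, a sterol C14-reductase gene, was lower at -1.29 (-1.43 to -1.16), with an RPKM of 3.75, 0.693, 0.660 and 1.48 in the order of the stages. Lbr, whose product has the same reductase activity besides its role as the lamin B receptor, had the highest mean RPKM, at 85.5, 71.5, 74.6 and 125. Fdft1, the squalene synthase ahead of Sqle, was singled out after its values were seen and had an RPKM of 64.9, 80.6, 98.5 and 72.2. Ebp, the sterol isomerase, had the lowest mean, at 0.121, 0.0990, 0.135 and 0.217. In FGOs the RPKM of Fdft1 was 72.2 and that of Sqle, the next step, 1.89, whereas Sqle, Lss at 1.24 and Cyp51 at 1.06, which follow each other in the pathway, were closer in level.

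**Figure D3:**
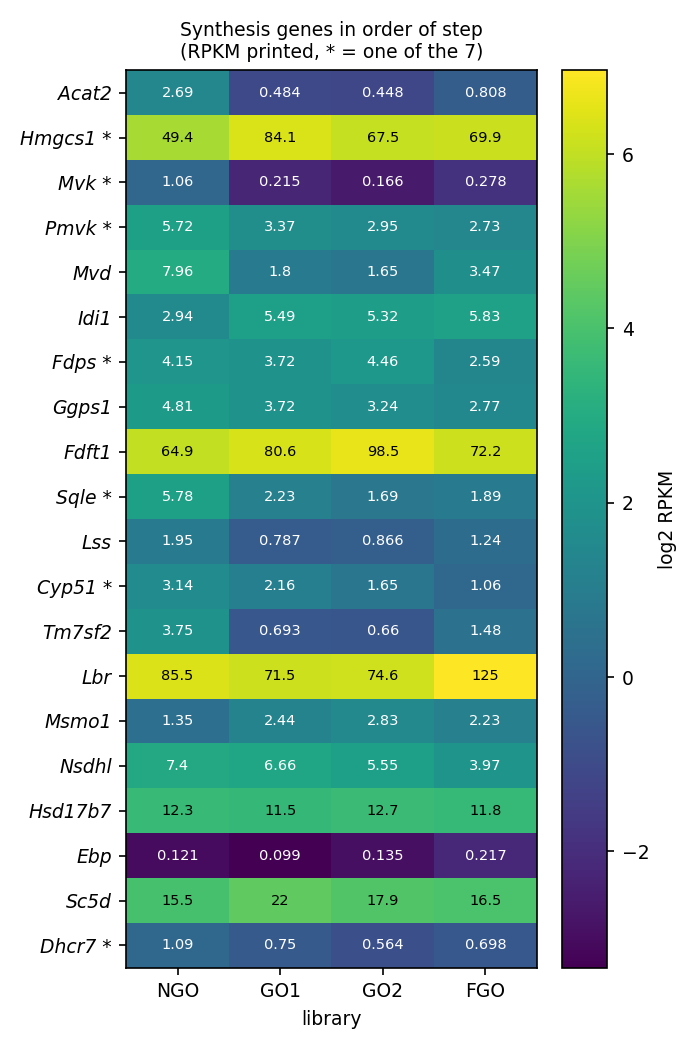
RPKM of the 7 genes and of the listed mevalonate and sterol enzymes (rows, in pathway order from Acat2 downwards) in the NGO, GO1, GO2 and FGO libraries (columns), with the colour on a log2 scale and the RPKM printed in each cell. Hmgcs1, Fdft1 and Lbr stand out as high in every library, between 49.4 and 125, and Ebp is at most 0.217.

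Of 7 genes that regulate the pathway, 1 was lower and 1 higher past 2-fold from NGOs to FGOs. The shares of all genes compared were 16.8 % and 17.7 %, and the median log2 change of the list was 0.10. The lower gene was Srebf2 itself, at -2.06 (-2.21 to -1.92), with an RPKM of 3.38 in NGOs and 0.814 in GO1, then 0.616 in GO2 and 0.779 in FGOs. Mbtps2, which encodes the site-2 protease that releases SREBPs from the membrane, was higher at 1.16. Srebf1, which encodes another SREBP, was singled out after its values were seen and was at 0.30. Its RPKM was 13.5, 3.97, 5.12 and 15.9 in the order of the stages, above that of Srebf2 in every library. Insig1, whose product holds the SREBP complex in the endoplasmic reticulum and whose gene is itself a target of SREBP, had the highest mean RPKM of this list, at 212, 160, 132 and 137. Insig2, which acts in the same way, had the lowest, at 1.19, 0.770, 0.878 and 1.24.

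Among 6 genes of uptake and lysosomal transfer, 5 reached 20 counts in the pair of NGOs and FGOs. Of these 0 were lower and 0 higher past 2-fold, beside 16.8 % and 17.7 % of all genes compared. The median of the 5 was 0.20. The receptors Scarb1, Vldlr and Lrp8 were singled out after their values were seen. The RPKM of Scarb1 was 1.76, 1.49, 1.89 and 1.95 in the order of the stages. Vldlr was at 0.0943 to 0.142 and Lrp8 at 0.125 to 0.206. Npc1, which moves cholesterol out of lysosomes, had the highest mean of the list, with 15.2, 15.7, 14.7 and 18.4. Lipa, the lysosomal acid lipase that frees cholesterol from its esters, had the lowest, with 13 counts in NGOs and 0 in GO1, then 8 in GO2 and 6 in FGOs, and the 0 counts in GO1 allow an RPKM of up to 0.00797 (3 counts). Of 6 storage and efflux genes, 5 reached 20 counts in this pair, with a median of 0.30. Past 2-fold 1 was lower and 2 were higher, beside the same 16.8 % and 17.7 % of all genes compared. Abca1, a cholesterol exporter, was at -2.85, and Abcg1, another exporter, at 1.39, with an RPKM of 3.36, 3.96, 5.84 and 8.50. Nr1h3, a sterol-sensing nuclear receptor gene, was at 1.47 on 7 and 22 counts (0.32 to 3.06). Soat1, which esterifies cholesterol for storage, had the highest mean of this list, at 14.7, 18.1, 15.4 and 17.4, and Soat2 the lowest, at 0.0163, 0.0249, 0.0355 and 0.0188. From GO1 to GO2, 0 genes of the mevalonate, sterol, regulation and uptake lists were past 2-fold in either direction. Of the storage and efflux list Nr1h3 was, on 1 and 21 counts, with a ratio of 6.80 (1.72 to 443). Among all genes compared in that pair, 2.93 % were lower and 6.83 % higher past 2-fold.

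The 7 genes did not share a single profile over the 4 libraries. The median of their log2 RPKM, after each gene was centred on its mean, was 0.70 in NGOs and -0.01 in GO1, then -0.26 in GO2 and -0.37 in FGOs, whereas Hmgcs1 was at -0.43, 0.34, 0.02 and 0.07. The distance of a gene from this median was the root mean square difference over the 4 libraries. It was 0.65 for Hmgcs1 and 0.69 for Mvk, and 0.17 to 0.38 for Dhcr7, Cyp51, Sqle and Fdps. Pmvk was itself the median gene in NGOs, GO2 and FGOs, and Dhcr7 was in GO1. The distance of 0.030 for Pmvk thus follows from how the median was made. All 7 genes helped to make this median, so their distances cannot be compared with those of other genes. The median distance was 0.53 over the 10749 genes that reached 100 counts in each of the libraries, a filter that Mvk did not pass. Outside the lists, the genes with the smallest distance were Serinc3 at 0.017, Tbck at 0.030, Aup1 at 0.031, Plcb1 at 0.034 and Mrpl54 at 0.041. These distances rest on 4 libraries made by 2 methods and are a description of likeness in these libraries.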

How the data were processed

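RNA-Seq of NGOs, GO1, GO2 and FGOs was available as 1 library per stage. The authors trimmed reads with Trim Galore (0.2.8) and mapped them to GRCm38 with TopHat2 (2.0.9), per the submitters' processing notes, and deposited 1 value per gene and library, which is RPKM. Whole counts had been thought possible when the analyses were planned, but the values were not whole. The counting program, annotation and strand setting behind the table are not given in the sources used here. Counts were recovered from RPKM, exon length and library total, and the procedure was tested on simulated data. Library totals were fitted on genes with 1 exon. Of the values of the 473 to 725 such genes above 0, 99.4 to 99.7 % came out whole (within 0.001 plus 5e-07 of the count). This check does not cover the exon lengths of other genes. Annotated lengths fitted 9356 genes as exon unions and 1356 as transcripts. For 10219 genes the smallest length that made the values whole was taken, so their counts can be too low, and for 92 counts were rounded. Changes used library sizes adjusted by trimmed mean scaling of log ratios (30 % of ratios and 5 % of mean expression trimmed at each end), a prior count of 1, and genes that reached 20 counts in the pair. Genes with at least 3 counts were called detected. All 7 members were named, and from each list the genes past 2-fold and those with the highest and lowest mean RPKM. Of each marker list, the genes with the 2 highest levels were named, for the lists described. Some listed genes are not reported here and were left out of the counts of their lists. Members and lists were chosen with earlier results of these data known. Python 3.11.15, numpy 2.4.6, pandas 2.3.3, scipy 1.17.1 and matplotlib 3.10.9 were used. Scalings, prior counts, filters, thresholds and the genes behind percentiles were varied.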

Additional observations from a re-analysis of the deposited data

How the results depend on the processing

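No paired analysis was possible because each stage had 1 library, and no replicate could be left out. Past 4-fold, 0 members were lower in FGOs than in NGOs, beside 5.54 % of the genes compared, and past 1.5-fold 6 members were, beside 27.1 %. With GO1 in place of NGOs, an alternative chosen after seeing the data, 1 member was lower past 2-fold and the median change was -0.41. The counts of members past 2-fold were the same with deposited totals, a median of ratios, uniquely mapped reads, a prior count of 5 and no filter on low values, and no change of a member turned its direction under them. With GO1 in place of NGOs the changes of Hmgcs1 and Mvk turned, to -0.41 and 0.22. Under the former alternatives the median change of the members was -1.13 to -1.01 from NGOs to FGOs and -0.41 to -0.37 from GO1 to GO2. Scaling by uniquely mapped reads shifted the median of all genes by -0.11 from NGOs to FGOs, with Hmgcs1 then at 0.44 and Sqle at -1.67. With uniquely mapped reads as the denominator, RPKM was higher by 2.94 to 3.55 times, with Hmgcs1 in NGOs at 175. Percentiles of the members moved in 28 of 28 cases when taken over all listed genes and in 24 of 28 when counts were not divided by length. Counting error was smallest for Hmgcs1 and largest for Mvk, which had 73 counts in GO1. Differences between animals or library preparations were not measured.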
